A study of Homo sapiens with 8 samples.

Results

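The enzymes and regulators of sterol and fatty acid synthesis were followed at the level of mRNA and of ribosome footprints in human HEK293T cells with and without the exoribonuclease XRN1. The 38 genes were taken by symbol from the deposited gene list, which holds 10105 genes, and comprise 4 genes of acetyl-CoA and acetoacetyl-CoA supply, 6 genes from the mevalonate steps to farnesyl diphosphate, 11 genes from squalene to cholesterol, 6 genes of the SREBP pathway including a sterol carrier, 5 genes of fatty acid synthesis and elongation, 3 desaturases and 3 genes of fatty acid activation or phosphatidate use. The choice of genes used no measured value, although earlier results of these data were known when it was made.

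HEK293T is an established line derived from human embryonic kidney. WT cells were compared with XRN1-null cells, a single line made by CRISPR-Cas9 with a guide against a coding exon of XRN1. Cells of both genotypes grew for 24 h on 15 cm dishes until harvest and carried no other labelled change. RNA-Seq and Ribo-Seq, the sequencing of ribosome-protected fragments (RPF), were each done with 2 biological replicates per genotype, giving 8 libraries. What belongs to the absence of XRN1 and what belongs to the 1 edited line cannot be told apart.

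RNA-Seq libraries held 33757487 to 38145433 counts and Ribo-Seq libraries 1921641 to 4399542, so that RPF values carry the larger counting error. Sequencing was paired-end, and the study gives fewer mapped RNA-Seq reads than these counts. Whether both reads of a pair were counted was not tested, so that RNA-Seq counts may exceed the number of fragments. The mRNA of XRN1 itself was counted 1187 and 1084 times in the WT libraries and 10655 and 9834 times in the XRN1-null libraries. Its RPF counts were 66 and 217 in WT against 91 and 59 in XRN1-null cells, and its translation efficiency (TE, RPF per mRNA) was lower by 4.09 on the log2 scale (SE 0.22, edgeR FDR, an adjusted p defined below, of 1.66e-06). RNA from the edited gene was thus higher and its footprints per RNA were lower in the XRN1-null libraries. Of 9 HEK293T markers 7 were in the gene list, with 1 higher (14.3%) and 3 lower (42.9%) in XRN1-null mRNA, against 22.9% and 23.2% of all genes by the test given below, while PAX2 and LHX1 were not in it. Of 10 markers of leukocytes, hepatocytes and fibroblasts only COL1A1 was listed, with mRNA higher by 1.34 on the log2 scale, and the part of such a shift in the results below was not tested.

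Cholesterol is built from acetyl-CoA through mevalonate, farnesyl diphosphate and squalene, which is closed to lanosterol and then trimmed to cholesterol. Fatty acids are built from the same acetyl-CoA, which acetyl-CoA carboxylase turns into malonyl-CoA for fatty acid synthase, and the products are then elongated and desaturated in the endoplasmic reticulum. Both branches are known targets of the SREBP transcription factors. SREBPs are held as membrane-bound precursors by SCAP and the INSIG proteins when sterols are plentiful, and are cleaved in the Golgi when sterols fall.

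The promoters of some of these genes are shown because SREBPs are known to act together with the CCAAT-binding factor NF-Y. Of the 38 genes, 34 had a promoter in the RefSeq table of the GRCh38.p14 assembly, covering 250 bases before and 50 bases after the transcription start. ACAT2, FDFT1, SQLE and FASN had no entry. The letters TCACNCCAC (sterol regulatory element), CCAAT and CACGTG (E-box) were searched on both strands. Only exact matches in a single promoter per gene were counted, so that variant sites, other promoters and more distant sites were not covered. The last letters of TCACNCCAC are the first of CACGTG, so that these motifs can share bases, and CACGTG reads the same on both strands. CCAAT or its reverse complement was present in 21 of the 34 promoters (61.8%), against 35.7% of the 27305 promoters of the table and 38.3% of those of genes in the count table. The E-box letters stood in 5 promoters (14.7%), against 7.43% of all promoters and 10.8% of those of genes in the count table. TCACNCCAC was found only in SREBF2 (2.94% of the 34 promoters, against 1.15% of all), and 12 promoters, among them those of ACACA, AACS, SREBF1, FADS1 and FADS2, held none of the 3.

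Promoters are printed below for 4 genes with changed mRNA, all of which held searched letters, and for SREBF2. SREBF2 was picked because of its motif after the motifs and values were seen. ACACA, AACS, SREBF1, FADS1 and FADS2 changed more in mRNA than MSMO1 but held none of the letters, and are not printed. Each printed promoter is the RefSeq sequence from 250 bases before to 30 bases after the start, 5′ to 3′. Capitals mark the searched letters on either strand. All 5 had 1 exact match in GRCh37, on the plus strand, at chr1:162760242-162760521 (HSD17B7), chr12:110011349-110011628 (MVK), chr7:155089338-155089617 (INSIG1), chr4:166248571-166248850 (MSMO1) and chr22:42228859-42229138 (SREBF2).
HSD17B7: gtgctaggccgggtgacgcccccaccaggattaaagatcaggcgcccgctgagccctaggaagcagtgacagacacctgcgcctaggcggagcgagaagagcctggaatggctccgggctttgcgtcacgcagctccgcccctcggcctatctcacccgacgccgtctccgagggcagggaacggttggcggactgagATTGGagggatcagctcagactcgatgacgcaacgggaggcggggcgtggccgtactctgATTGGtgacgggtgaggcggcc
MVK: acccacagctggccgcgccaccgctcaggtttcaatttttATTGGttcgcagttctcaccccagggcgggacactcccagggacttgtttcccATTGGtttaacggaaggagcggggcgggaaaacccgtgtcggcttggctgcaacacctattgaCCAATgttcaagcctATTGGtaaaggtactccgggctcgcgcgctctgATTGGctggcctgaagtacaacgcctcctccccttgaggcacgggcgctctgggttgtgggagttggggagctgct
INSIG1: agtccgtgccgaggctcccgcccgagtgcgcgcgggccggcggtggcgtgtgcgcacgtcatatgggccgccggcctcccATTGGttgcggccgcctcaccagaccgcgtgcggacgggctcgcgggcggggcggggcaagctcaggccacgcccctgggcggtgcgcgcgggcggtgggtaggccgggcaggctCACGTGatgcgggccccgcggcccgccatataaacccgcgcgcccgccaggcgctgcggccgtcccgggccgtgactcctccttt
MSMO1: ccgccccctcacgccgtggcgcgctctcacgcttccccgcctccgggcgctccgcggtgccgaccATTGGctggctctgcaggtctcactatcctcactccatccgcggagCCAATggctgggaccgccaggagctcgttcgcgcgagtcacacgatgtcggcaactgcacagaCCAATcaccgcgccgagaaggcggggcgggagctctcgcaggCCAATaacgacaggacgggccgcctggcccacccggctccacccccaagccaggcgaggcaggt
SREBF2: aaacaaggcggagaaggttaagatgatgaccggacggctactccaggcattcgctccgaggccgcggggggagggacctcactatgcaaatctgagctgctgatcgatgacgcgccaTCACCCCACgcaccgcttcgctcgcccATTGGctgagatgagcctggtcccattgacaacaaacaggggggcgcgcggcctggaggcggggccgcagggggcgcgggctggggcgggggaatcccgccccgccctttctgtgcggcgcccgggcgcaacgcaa

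MVK, whose mRNA was higher in XRN1-null cells, held CCAAT letters at 5 places, and MSMO1, whose mRNA was lower, held them at 4. CCAAT letters were present in 5 of the 8 promoters of genes with higher mRNA, in 5 of the 7 of genes with lower mRNA and in 11 of the 19 others. CCAAT letters were thus found beside mRNA differences in both directions. The E-box letters stood in 2 of the 8, 2 of the 7 and 1 of the 19 promoters. Whether either motif went with the direction of the mRNA difference was not tested.

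In WT cells, the 38 genes together took 0.539% and 0.569% of the RNA-Seq counts, and in XRN1-null cells 0.595% and 0.598%. In Ribo-Seq they took 0.517% and 0.571% in WT against 0.567% and 0.58% in XRN1-null cells. By these shares of library totals, the XRN1-null libraries were above both WT libraries in RNA-Seq, and not in Ribo-Seq, where a WT library lay between them. As CPM, defined below, the RNA-Seq sums were 5455.5 and 5852.4 in WT against 5836.7 and 5854.8 in XRN1-null cells. With that scaling a WT library lay between the XRN1-null libraries in RNA-Seq too. The 38 genes had at least 474 counts in every RNA-Seq library, but as few as 15 in a Ribo-Seq library.

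Levels between genes were compared as CPM (counts scaled to the library total after TMM normalization) per kb of the deposited gene width. The median mRNA level in WT cells was 29.9 CPM per kb, against 15 over all genes. SCD, the stearoyl-CoA desaturase, had the highest mRNA level of the 38 genes at 214 CPM per kb, followed by ACLY, the cytosolic ATP citrate lyase, at 108.8. The lowest was LPIN1, a phosphatidate phosphatase and coactivator, at 3.6.

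RPF per mRNA was described as the ratio of mean WT CPM. The lowest ratios of the 38 genes belonged to INSIG1 (0.367), SCAP (0.396) and SREBF2 (0.449), at percentiles 10.9, 13.1 and 17.2 of all genes. The highest were those of MSMO1 (1.62), CYP51A1 (1.61) and HSD17B7 (1.57), 3 enzymes that act after lanosterol is formed, at percentiles 90.3, 90.1 and 89.3. These ratios are not corrected for the share of each mRNA that is coding, and that of HSD17B7 carries the doubt on its pseudogene given below.

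In XRN1-null cells, mRNA of 8 of the 38 genes was higher (21.1%) and of 7 lower (18.4%) than in WT cells, at an FDR below 0.005 by the quasi-likelihood test of edgeR with p-values adjusted by Benjamini-Hochberg over all genes (FDR). Over all 10105 genes 22.9% were higher and 23.2% lower, 46.1% in all, so that the share of called genes was not above the background in either direction. The median log2 fold change was -0.03 for the 38 genes and -0.01 for all genes. The genes with higher mRNA were ACACA, AACS, HSD17B7, MVK, SREBF1, SC5D, LSS and TM7SF2. Those with lower mRNA were INSIG1, FADS2, FADS1, MSMO1, ELOVL5, SCD and EBP. Both libraries of the XRN1-null group lay above both WT libraries for 15 genes and below both for 17, and over all genes 41% lay above and 43.7% below. In these bulk samples, a lower level of an mRNA in every cell and fewer cells that make it cannot be told apart.

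**Figure D1:**
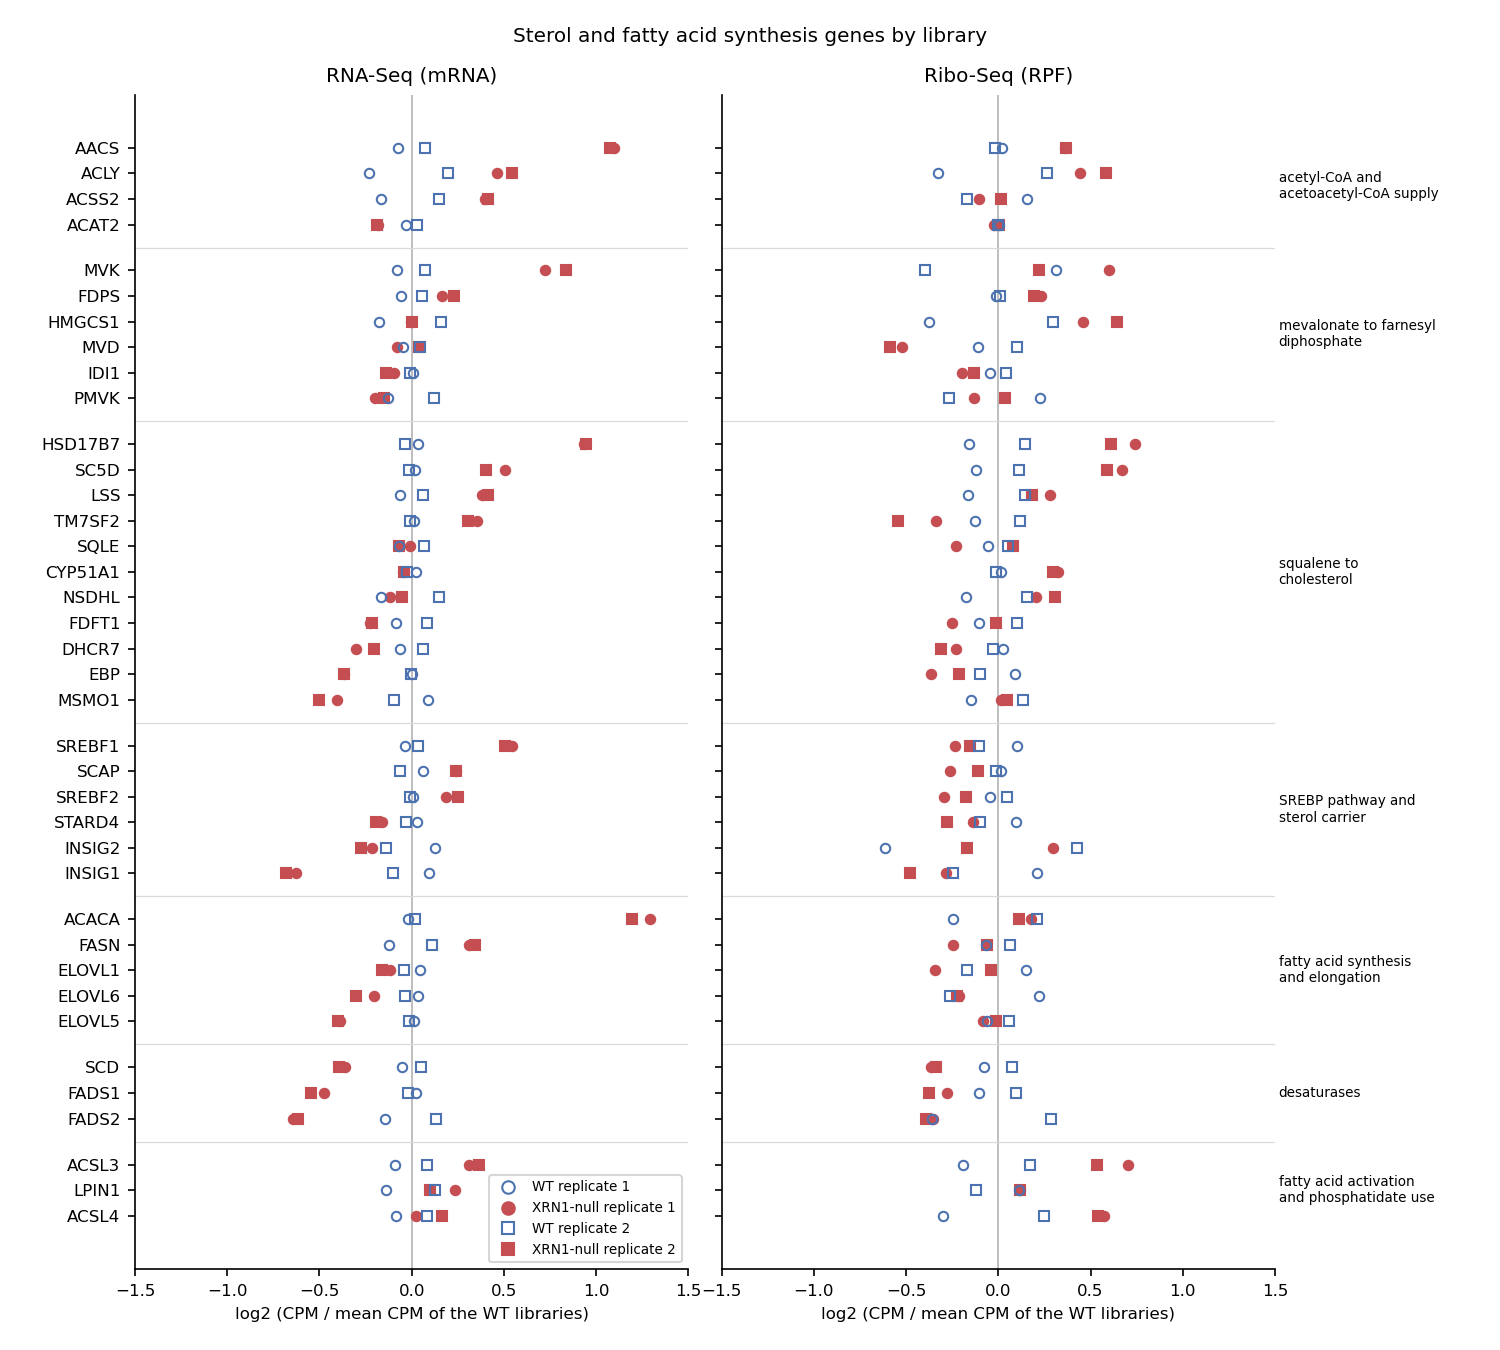
Level of each of the 38 genes in every library, as the log2 of its CPM over the mean CPM of the 2 WT libraries, in RNA-Seq (left) and Ribo-Seq (right); open blue symbols are WT, filled red symbols XRN1-null, circles replicate 1 and squares replicate 2, and the genes are grouped by role. ACACA and AACS stand farthest to the right in mRNA, at 208.8 to 223.3 CPM and 56.39 to 57.36 CPM in XRN1-null cells, and the 3 desaturases lie to the left of WT.

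Among the 4 genes that supply acetyl-CoA and acetoacetyl-CoA, 1 was higher (25%, against 22.9% of all genes) and none lower (against 23.2%). AACS, the cytosolic acetoacetyl-CoA synthetase that feeds ketone bodies into lipid synthesis, measured 25.41 and 28.17 CPM in WT against 57.36 and 56.39 CPM in XRN1-null mRNA. Both XRN1-null values were above both WT values, a rise of 2.12-fold (log2 1.09, SE 0.0746, edgeR FDR = 2.34e-05). ACLY, which makes cytosolic acetyl-CoA from citrate, measured 405.1 and 545.6 CPM in WT against 654.4 and 692.9 CPM in XRN1-null mRNA. Its WT libraries were farther apart than those of any other of the 38 genes, and it did not pass the test (log2 0.50, SE 0.128, edgeR FDR = 0.00945). ACSS2, the acetyl-CoA synthetase, had a log2 fold change of 0.41 and ACAT2, the cytosolic thiolase, of -0.19, and neither passed. ACLY was called higher with library totals, and both ACLY and ACSS2 with DESeq2 and the likelihood ratio test. ACAT2 shares 454 exon bases with TCP1 on the opposite strand, in libraries that do not mark strand. TCP1 was the more abundant, at 847 and 873.4 CPM in WT against 673.5 and 691.5 CPM in XRN1-null mRNA, and was called lower (log2 -0.33, SE 0.0594, edgeR FDR = 0.00177), so that the value of ACAT2 is uncertain to that degree.

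Among the 6 genes from the mevalonate steps to farnesyl diphosphate, only MVK passed the test, as higher (16.7%, against 22.9% of all genes). Mevalonate kinase mRNA was measured at 22.45 and 24.97 CPM in WT against 39.07 and 42.28 CPM in XRN1-null cells, without overlap. The rise was 1.72-fold (log2 0.78, SE 0.0851, edgeR FDR = 0.000171). MVK shares 225 exon bases with MMAB on the opposite strand, and the library kit does not mark strand. MMAB mRNA differed in the other direction, at 76.12 and 72.29 CPM in WT against 51.6 and 48.22 CPM in XRN1-null cells (log2 -0.57, SE 0.0684, edgeR FDR = 0.000255). The other 5 genes of these steps, HMGCS1, PMVK, MVD, IDI1 and FDPS, had log2 fold changes from -0.18 (PMVK) to 0.20 (FDPS). HMGCS1, the cytosolic HMG-CoA synthase, measured 60.4 and 76.25 CPM in WT against 68.25 and 68.38 CPM in XRN1-null mRNA, inside the WT range.

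Of the 11 genes from squalene to cholesterol, 4 were higher (36.4%, against 22.9% of all genes), 2 were lower (18.2%, against 23.2%) and 5 did not pass. HSD17B7, the sterol 3-keto reductase, measured 15.16 and 14.43 CPM in WT against 28.28 and 28.49 CPM in XRN1-null mRNA. It rose 1.92-fold (log2 0.94, SE 0.0801, edgeR FDR = 5.77e-05). Its pseudogene HSD17B7P2 is counted separately, and its RNA-Seq counts were 67 and 58 in WT against 430 and 427 in XRN1-null cells (log2 2.61, SE 0.135, edgeR FDR = 9e-06). Reads that fit both copies could have been split between them, so that the value of HSD17B7 is uncertain to that degree.

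SC5D, the lathosterol desaturase, measured 180.3 and 176.4 CPM in WT against 252.9 and 235.7 CPM in XRN1-null mRNA (log2 0.45, SE 0.0659, edgeR FDR = 0.000656). LSS, the cyclase that closes squalene epoxide to lanosterol, measured 68.36 and 74.33 CPM in WT against 92.94 and 95.07 CPM in XRN1-null mRNA (log2 0.40, SE 0.0687, edgeR FDR = 0.00153). In both genes the XRN1-null libraries were the higher ones. TM7SF2, a sterol reductase of the C14 double bond, measured 32.25 and 31.79 CPM in WT against 40.89 and 39.51 CPM in XRN1-null mRNA (log2 0.33, SE 0.0679, edgeR FDR = 0.00369). TM7SF2 shares 18 exon bases with VPS51 on the same strand, whose mRNA was also higher (log2 0.36, SE 0.074, edgeR FDR = 0.00368).

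On the lower side, MSMO1, the sterol C4-methyl oxidase, measured 75.45 and 66.29 CPM in WT against 53.52 and 50.02 CPM in XRN1-null mRNA (log2 -0.45, SE 0.0816, edgeR FDR = 0.00186). EBP, the sterol isomerase that binds emopamil, measured 94.56 and 94.4 CPM in WT against 73.38 and 73.19 CPM in XRN1-null mRNA (log2 -0.37, SE 0.0606, edgeR FDR = 0.00125). Neither gene overlapped between the genotypes, and the replicates of EBP nearly coincided within each. FDFT1, SQLE, CYP51A1, NSDHL and DHCR7 did not pass, with log2 fold changes from -0.25 (DHCR7) to -0.04 (SQLE). CYP51A1, the lanosterol demethylase, shares 108 exon bases with AKAP9 on the opposite strand, whose mRNA was higher (log2 0.85, SE 0.0768, edgeR FDR = 7.21e-05). The summed mRNA of the 11 genes was 1119 and 1159 CPM in WT against 1159 and 1146 CPM in XRN1-null cells, so the sum of this branch differed by no more than its replicates did.

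The calls of LSS, SC5D, TM7SF2, MSMO1 and EBP were lost when either XRN1-null RNA-Seq library was left out, with an edgeR FDR of 0.00565 to 0.0545, and the differences kept their sign. The same held for ELOVL5 and SCD, described below, with an edgeR FDR of 0.0219 to 0.0489. FADS1 lost its call only without XRN1-null RNA-Seq replicate 2 (edgeR FDR = 0.00883). ACACA, AACS, HSD17B7, MVK, SREBF1, INSIG1 and FADS2 stayed past the threshold whichever of the 4 RNA-Seq libraries was left out. With RNA-Seq counts thinned to Ribo-Seq depth, LSS, SC5D, TM7SF2, MSMO1, EBP and ELOVL5 were not called.

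Of the 6 genes of the SREBP pathway, SREBF1 was higher and INSIG1 lower (16.7% each, against 22.9% and 23.2% of all genes), and the other 4 did not pass the test. SREBF1, which encodes the SREBP-1 isoforms, measured 69.4 and 72.84 CPM in WT against 103.5 and 101.1 CPM in XRN1-null mRNA (log2 0.52, SE 0.0639, edgeR FDR = 0.00028). SREBF2, which encodes SREBP-2, measured 179.6 and 177.5 CPM in WT against 203.2 and 212.5 CPM in XRN1-null mRNA (log2 0.22, SE 0.062, edgeR FDR = 0.0151). SCAP, the sterol-sensing escort of both, measured 171.2 and 157.2 CPM in WT against 193.9 CPM in each XRN1-null library (log2 0.24, SE 0.0675, edgeR FDR = 0.0151). For all 3 genes, both XRN1-null libraries were above both WT libraries, but only SREBF1 passed the threshold. SREBF1 shares 556 exon bases with RAI1 on the opposite strand, whose mRNA was lower (log2 -0.46, SE 0.0792, edgeR FDR = 0.00153).

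The INSIG genes encode the proteins that retain SCAP in the endoplasmic reticulum. INSIG1 measured 225.0 and 196.8 CPM in WT against 136.3 and 131.3 CPM in XRN1-null mRNA. This was the largest fall among the 38 genes, to 0.635 of WT (log2 -0.66, SE 0.0794, edgeR FDR = 0.000272). INSIG2, its paralog, measured 25.86 and 21.5 CPM in WT against 20.41 and 19.6 CPM in XRN1-null mRNA, without overlap, but did not pass the test (log2 -0.24, SE 0.104, edgeR FDR = 0.0705). STARD4, a cytosolic sterol carrier, had a log2 fold change of -0.18 and did not pass either. Whether the changes of INSIG1 and INSIG2, or of SREBF1 and SREBF2, differed from each other was not tested.

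Among the 5 genes of fatty acid synthesis and elongation, ACACA was higher and ELOVL5 lower (20% each, against 22.9% and 23.2% of all genes). ACACA, the acetyl-CoA carboxylase that commits carbon to fatty acid synthesis, measured 90.1 and 92.32 CPM in WT against 223.3 and 208.8 CPM in XRN1-null mRNA. It rose 2.37-fold, more than any other of the 38 genes (log2 1.24, SE 0.0666, edgeR FDR = 9.97e-06). FASN, the fatty acid synthase that uses the malonyl-CoA made by ACACA, measured 609.3 and 715.9 CPM in WT against 821.6 and 840.8 CPM in XRN1-null mRNA. Its XRN1-null libraries were the higher ones, but it did not pass (log2 0.33, SE 0.0838, edgeR FDR = 0.00989). FASN was called higher with library totals, DESeq2 and the likelihood ratio test.

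The 3 elongases of the ELOVL family, which lengthen saturated, monounsaturated or polyunsaturated chains, were all lower in both XRN1-null libraries than in both WT libraries, an arrangement that 43.7% of all genes shared. ELOVL5, which acts on polyunsaturated chains, measured 185.1 and 181.8 CPM in WT against 140.1 and 138.9 CPM in XRN1-null mRNA (log2 -0.39, SE 0.0601, edgeR FDR = 0.000831). ELOVL6, which lengthens palmitate, measured 71.72 and 68.15 CPM in WT against 60.74 and 56.8 CPM in XRN1-null mRNA (log2 -0.25, SE 0.0682, edgeR FDR = 0.0127). ELOVL1, which acts on very long saturated chains, measured 70.34 and 66.2 CPM in WT against 62.93 and 60.96 CPM in XRN1-null mRNA (log2 -0.14, SE 0.0656, edgeR FDR = 0.0931). Only ELOVL5 passed the threshold, and ELOVL6 passed it with the likelihood ratio test.

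All 3 desaturases were called lower in XRN1-null mRNA, against 23.2% of all genes. SCD, which makes monounsaturated from saturated acyl chains, measured 1131 and 1211 CPM in WT against 912.6 and 891.5 CPM in XRN1-null mRNA (log2 -0.38, SE 0.0625, edgeR FDR = 0.00129). FADS1, the delta-5 desaturase of polyunsaturated chains, measured 160.0 and 155.1 CPM in WT against 113.2 and 107.9 CPM in XRN1-null mRNA (log2 -0.51, SE 0.0638, edgeR FDR = 0.000314). FADS2, the delta-6 desaturase, measured 59.38 and 71.83 CPM in WT against 41.97 and 42.77 CPM in XRN1-null mRNA (log2 -0.63, SE 0.0946, edgeR FDR = 0.000777). In each of the 3 genes both XRN1-null libraries were below both WT libraries, as for 43.7% of all genes. FADS1 and FADS2 are neighbours on chromosome 11 whose exons share 490 bases on opposite strands, so their counts are not fully separate measurements. FADS2 also shares 49 exon bases with FEN1 on the same strand. FEN1 measured 122.6 and 151.1 CPM in WT against 131.2 and 142.5 CPM in XRN1-null mRNA (log2 2e-04, SE 0.103). The sum of SCD, FADS1 and FADS2 was 1350 and 1437 CPM in WT against 1068 and 1042 CPM in XRN1-null mRNA.

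The 3 genes of fatty acid activation and phosphatidate use had no called change in mRNA. ACSL3, an acyl-CoA synthetase of the endoplasmic reticulum and lipid droplets, measured 118.9 and 134.3 CPM in WT against 156.9 and 162.9 CPM in XRN1-null mRNA (log2 0.34, SE 0.0763, edgeR FDR = 0.00565). ACSL4, its paralog with a preference for arachidonate, measured 61.72 and 69.27 CPM in WT against 66.53 and 73.37 CPM in XRN1-null mRNA (log2 0.10, SE 0.0828, edgeR FDR = 0.336). ACSL3 lay just outside the threshold without overlap, and ACSL4 overlapped. ACSL3 was called higher with RLE size factors, library totals, DESeq2 and the likelihood ratio test. LPIN1 had a log2 fold change of 0.17 (edgeR FDR = 0.197).

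RPF addressed whether these differences were also seen among ribosome-bound fragments. None of the 38 genes passed the test in RPF, higher or lower, by the quasi-likelihood test of edgeR after Benjamini-Hochberg adjustment, and 13 had an unadjusted p under 0.05, as did 3336 of all 10105 genes. Over all genes 0.633% were higher and 1.14% lower in RPF, 1.77% in all. DESeq2 also called none of the 38 genes. The likelihood ratio test called 3 of them higher (4.64% over all genes). A fit with the replicate number as a block, described below, called 6 higher (6.1% over all genes). Both XRN1-null libraries lay above both WT libraries for 12 genes and below both for 12, against 32.1% and 32.3% of all genes. The median log2 fold change was -0.05, against -0.0033 over all genes. The 2 WT Ribo-Seq libraries differed by a median of 0.232 on the log2 scale over the 38 genes, and those of XRN1-null cells by 0.104. RNA-Seq replicates differed by 0.122 in WT against 0.0488 in XRN1-null cells, so that changes of the size seen in mRNA were harder to detect in RPF.

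The RPF values nearest to the threshold were those of SC5D, ACSL3 and HSD17B7, all higher in XRN1-null cells. SC5D measured 149.5 and 176.2 CPM in WT against 259.2 and 245.0 CPM in XRN1-null RPF (log2 0.62, SE 0.143, edgeR FDR = 0.0157). ACSL3 measured 158.3 and 203.5 CPM in WT against 294.3 and 261.9 CPM in XRN1-null RPF (log2 0.61, SE 0.156, edgeR FDR = 0.0234). HSD17B7 measured 20.84 and 25.73 CPM in WT against 38.99 and 35.58 CPM in XRN1-null RPF (log2 0.64, SE 0.17, edgeR FDR = 0.0273). In all 3 genes the genotypes did not overlap, and all 3 were past the threshold with edgeR's likelihood ratio test. For HSD17B7, footprints are subject to the same doubt as its mRNA, since the RPF of HSD17B7P2 measured 13.02 and 19.3 CPM in WT against 33.27 and 28.41 CPM in XRN1-null cells.

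Other genes with higher mRNA showed smaller or opposite RPF differences. AACS measured 24.48 and 23.89 CPM in WT against 31.04 and 31.21 CPM in XRN1-null RPF (log2 0.37, SE 0.164). MVK measured 20.31 and 12.4 CPM in WT against 24.83 and 19.04 CPM in XRN1-null RPF (log2 0.54, SE 0.248), with overlap, and the log2 value was 0.84 without WT Ribo-Seq replicate 1 and 0.14 without WT Ribo-Seq replicate 2. LSS measured 38.55 and 47.78 CPM in WT against 52.39 and 49.01 CPM in XRN1-null RPF (log2 0.20, SE 0.157, and 0.09 to 0.41 when 1 library was left out). The edgeR FDR of these 3 genes was 0.14 to 0.39. TM7SF2, in contrast, measured 16.67 and 19.75 CPM in WT against 14.4 and 12.49 CPM in XRN1-null RPF (log2 -0.46, SE 0.212, edgeR FDR = 0.151), below WT in both libraries.

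Among the genes with lower mRNA, the RPF of the desaturases was also below WT in the fitted value. SCD measured 693.3 and 772.0 CPM in WT against 569.9 and 579.7 CPM in XRN1-null RPF (log2 -0.35, SE 0.127, edgeR FDR = 0.0802). FADS1 measured 68.24 and 78.56 CPM in WT against 60.59 and 56.5 CPM in XRN1-null RPF (log2 -0.34, SE 0.144, edgeR FDR = 0.125). FADS2 measured 35.42 and 55.36 CPM in WT against 35.51 and 34.65 CPM in XRN1-null RPF (log2 -0.43, SE 0.193, edgeR FDR = 0.14), with overlap, since the lower WT value lay between the XRN1-null values. Without WT Ribo-Seq replicate 2, the log2 value of FADS2 was -2e-04. None of the 3 passed the test in RPF.

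INSIG1 measured 89.59 and 65.24 CPM in WT against 63.57 and 55.56 CPM in XRN1-null RPF (log2 -0.34, SE 0.171, edgeR FDR = 0.187). Its log2 value was -0.12 without WT Ribo-Seq replicate 1 and -0.57, past the threshold, without WT Ribo-Seq replicate 2. EBP measured 135.4 and 118.5 CPM in WT against 98.58 and 109.6 CPM in XRN1-null RPF (log2 -0.28, SE 0.144, edgeR FDR = 0.196). INSIG1 and EBP were below WT in both libraries. ELOVL5 (169.8 and 184.2 CPM in WT against 167.1 and 175.7 CPM in XRN1-null RPF) and MSMO1 (103.7 and 126.3 CPM in WT against 116.2 and 118.9 CPM in XRN1-null RPF) overlapped between the genotypes. Their RPF log2 values were -0.05 and 0.02. INSIG2 rested on few footprints, 15 and 70 counts in WT against 59 and 34 in XRN1-null cells, or 7.813, 16.08, 14.65 and 10.61 CPM, and its difference could not be resolved at this depth (log2 -0.05, SE 0.297).

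ELOVL1 measured 80.74 and 64.55 CPM in WT against 57.36 and 70.55 CPM in XRN1-null RPF, and ELOVL6 59.9 and 42.73 CPM in WT against 44.2 and 44.01 CPM in XRN1-null RPF. Both overlapped between the genotypes. ACSL4 measured 74.49 and 108.9 CPM in WT against 136.3 and 133.6 CPM in XRN1-null RPF, without overlap (log2 0.53, SE 0.171, edgeR FDR = 0.0558). HMGCS1, which did not differ in mRNA beyond its replicates, measured 66.67 and 106.1 CPM in WT against 118.7 and 134.8 CPM in XRN1-null RPF (log2 0.51, SE 0.19, edgeR FDR = 0.0848). MVD, the mevalonate diphosphate decarboxylase, measured 20.84 and 24.12 CPM in WT against 15.64 and 14.98 CPM in XRN1-null RPF (log2 -0.58, SE 0.195, edgeR FDR = 0.0628). In WT replicate 1, the Ribo-Seq library with the fewest counts, ACSL4 and HMGCS1 were lowest. Without WT Ribo-Seq replicate 2 both passed the threshold in RPF, at log2 values of 0.87 and 0.93, and without WT Ribo-Seq replicate 1 the values were 0.32 and 0.26. The other genes without a call in any measure had RPF log2 values from -0.27 (DHCR7) to 0.51 (ACLY). That of ACLY ran from 0.25 to 0.85 when 1 library was left out.

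**Figure D2:**
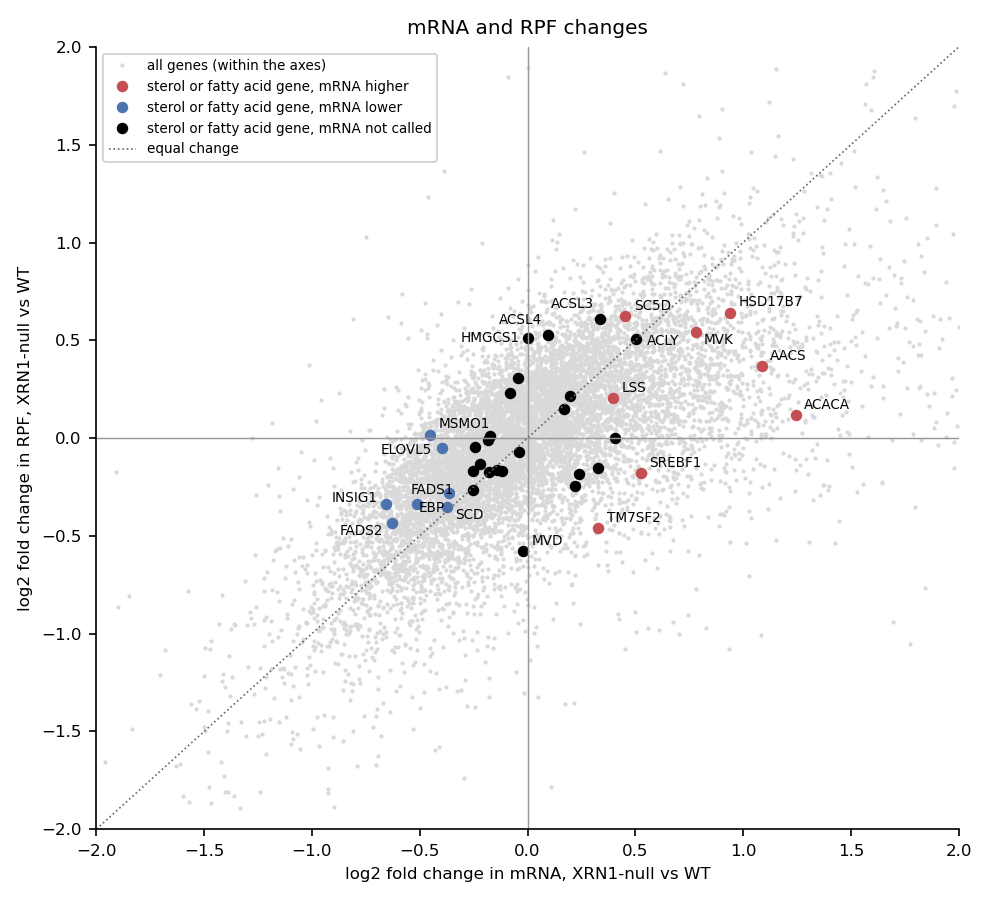
Log2 fold change in mRNA (horizontal) against that in RPF (vertical), XRN1-null over WT, for all genes within the axes (grey) and the 38 genes, coloured by their mRNA call; the dotted line marks equal change. ACACA lies at 1.24 in mRNA and 0.12 in RPF (-0.06 to 0.40 when 1 library was left out), and SREBF1 and TM7SF2 lie right of 0 in mRNA and below 0 in RPF, at -0.18 and -0.46.

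TE was tested over all 8 libraries as the term by which the genotype difference departs between RNA-Seq and Ribo-Seq. ACACA was the only one of the 38 genes called in TE, as lower (2.63%), and no gene was called higher. Over all genes 1.78% were called lower and 0.0495% higher, 1.83% in all. ACACA measured 81.78 and 112.1 CPM in WT against 109.5 and 104.6 CPM in XRN1-null RPF, with overlap (log2 0.12, SE 0.162). This RPF value was -0.06 without WT Ribo-Seq replicate 1 and 0.40 without WT Ribo-Seq replicate 2. Its RPF to mRNA ratio was 0.908 and 1.21 in WT against 0.49 and 0.501 in XRN1-null cells, a fall in TE to 0.456 of WT (log2 -1.13, SE 0.176, edgeR FDR = 0.0024). In WT its ratio stood at percentile 68.3 of all genes and in XRN1-null cells at percentile 25.1. The call was kept with all other scalings and tests tried, but was lost in 7 of the 8 fits that left out a library, with log2 values from -1.30 to -0.84, the latter without WT Ribo-Seq replicate 2. In those 7 fits the edgeR FDR was 0.00714 to 0.0327.

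SREBF1, AACS and TM7SF2 came next in order of FDR. SREBF1 measured 59.9 and 51.91 CPM in WT against 47.43 and 50.26 CPM in XRN1-null RPF, below WT in both libraries, while its mRNA was above WT. Its RPF to mRNA ratio was 0.863 and 0.713 in WT against 0.458 and 0.497 in XRN1-null cells (TE log2 -0.70, SE 0.143, edgeR FDR = 0.0122). The ratio of AACS was 0.963 and 0.848 in WT against 0.541 and 0.554 in XRN1-null cells (TE log2 -0.72, SE 0.166, edgeR FDR = 0.0215). The ratio of TM7SF2 was 0.517 and 0.621 in WT against 0.352 and 0.316 in XRN1-null cells (TE log2 -0.80, SE 0.197, edgeR FDR = 0.0295). In none of these genes did the ratios overlap, and none passed the threshold of 0.005. SREBF1 passed it with DESeq2, and all 3 passed it with edgeR's likelihood ratio test.

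The genes that encode SREBP-2 and SCAP had no call in mRNA, RPF or TE. SREBF2 measured 77.61 and 82.69 CPM in WT against 65.31 and 70.86 CPM in XRN1-null RPF (TE log2 -0.47, SE 0.141, edgeR FDR = 0.0665). SCAP measured 65.63 and 64.32 CPM in WT against 54.13 and 60.24 CPM in XRN1-null RPF (TE log2 -0.42, SE 0.148, edgeR FDR = 0.109). FASN measured 811.0 and 889.2 CPM in WT against 717.4 and 813.8 CPM in XRN1-null RPF (TE log2 -0.48, SE 0.151, edgeR FDR = 0.0763). For SREBF1, SREBF2 and SCAP, mRNA was above WT and RPF below WT in every library, and for FASN the RPF overlapped. TM7SF2 was the other of the 38 genes in this arrangement, which 382 of all genes showed (3.78%), and it was described after the values were seen. Summed over the 6 genes of the SREBP pathway, RPF was 327.6 and 303.9 CPM in WT against 268.2 and 268.4 CPM in XRN1-null cells, while summed mRNA was 710.9 and 664 CPM in WT against 692.2 and 692.6 CPM in XRN1-null cells. On the other side, the largest TE values without a call were those of HMGCS1 (log2 0.49, SE 0.231), MSMO1 (log2 0.46, SE 0.154) and ACSL4 (log2 0.41, SE 0.19). Leaving out 1 library moved HMGCS1 from 0.26 (without WT Ribo-Seq replicate 1) to 0.93 (without WT Ribo-Seq replicate 2), and ACSL4 from 0.22 to 0.77 with the same libraries left out. The TE test uses the RNA-Seq libraries of the mRNA test, so that an mRNA value that is high by error gives a low TE.

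**Figure D3:**
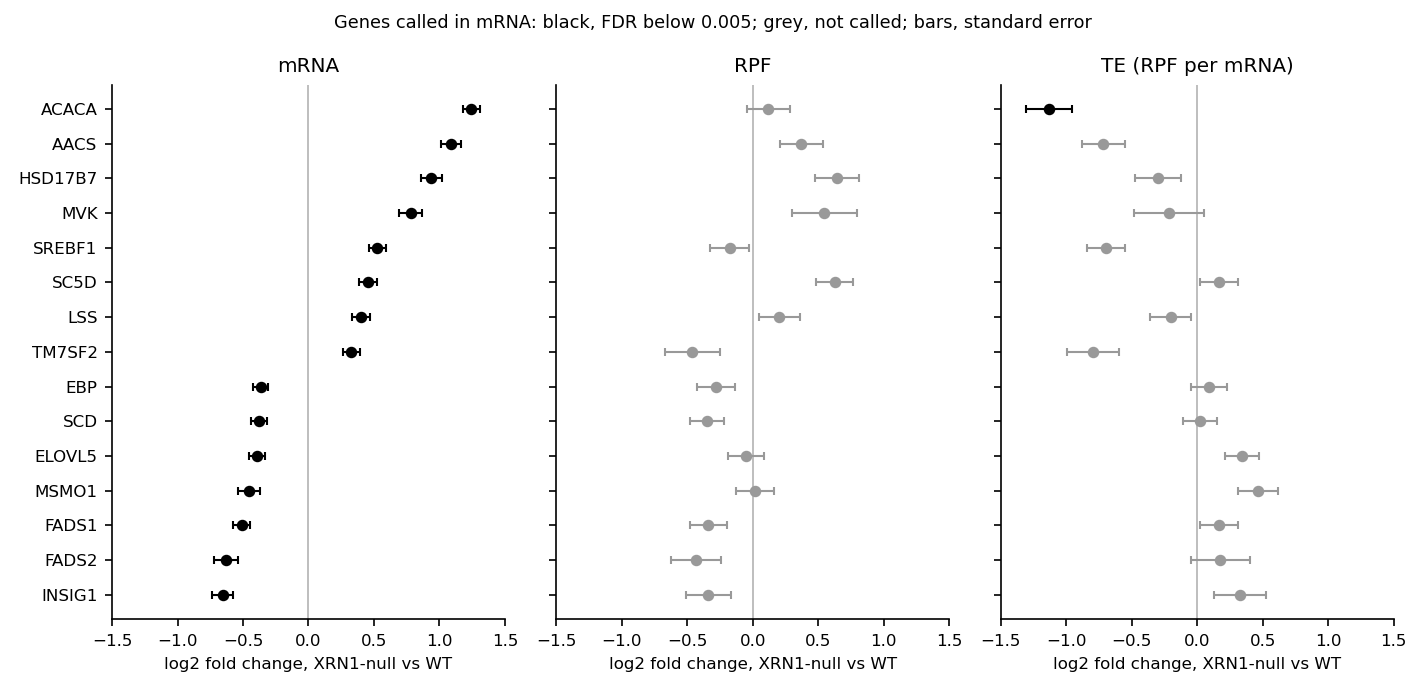
Log2 fold change, XRN1-null over WT, in mRNA, RPF and TE for the 15 genes called in mRNA, with bars for the standard error; black points passed an FDR of 0.005 and grey points did not. ACACA is the only gene with a black point in TE, at -1.13, and no gene has one in RPF.

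The wider sterol and lipid pathways were described from lists of related genes chosen with earlier results of these data known. Of 10 listed genes for SREBP cleavage and sterol-regulated degradation, 8 had lower mRNA (80%, against 23.2% of all genes) and none higher, with a median of -0.40 on the log2 scale, against -0.01 over all genes. MBTPS1, the site-1 protease that makes the first cut in SREBPs, was lower by 0.77 (SE 0.0715, edgeR FDR = 8.23e-05). In RPF none of the 10 genes was called, and MBTPS1 had a log2 value of -0.75 (SE 0.168, edgeR FDR = 0.0139).

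For other sterol enzymes and the electron donors of sterol and acyl chain desaturation, 9 of 11 listed genes were in the count table. Of these 9, 6 had lower mRNA (66.7%, against 23.2% of all genes), none had higher mRNA and 3 did not pass, with a median of -0.45. CYB5B, an outer mitochondrial membrane cytochrome b5, was lower by 0.93 (SE 0.0651, edgeR FDR = 2.53e-05). In RPF, CYB5B lay at the threshold without passing it (log2 -0.83, SE 0.144, edgeR FDR = 0.005002).

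The branches that use isoprenoids from farnesyl diphosphate showed 5 higher and 1 lower of 13 genes (38.5% and 7.69%, against 22.9% and 23.2% of all genes), with a median of 0.36. DHDDS, a subunit of the cis-prenyltransferase for dolichol, was higher by 0.90 (SE 0.0732, edgeR FDR = 4.62e-05), and PDSS1, a subunit of the synthase for the coenzyme Q side chain, by 0.82 (SE 0.0782, edgeR FDR = 9.6e-05). In RPF they had log2 values of 0.14 and 0.05, and neither was called in RPF or TE. For other elongation, desaturation and activation steps, 13 of 19 listed genes were in the count table. Of these, 6 were lower (46.2%, against 23.2% of all genes) and none higher, with a median of -0.36. SCD5, a second stearoyl-CoA desaturase, was lower by 0.55 (SE 0.0738, edgeR FDR = 0.000457) and HACD1, a dehydratase of the elongation cycle, by 0.67 (SE 0.104, edgeR FDR = 0.000951).

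For cholesterol uptake, transport, esterification and export, 12 of 15 listed genes were in the count table. Among them only LIPA, the lysosomal acid lipase, passed the test (8.33% lower and 0% higher, against 23.2% and 22.9% of all genes). LIPA was lower by 0.37 (SE 0.0808, edgeR FDR = 0.00484). VLDLR, a lipoprotein receptor, lay at the threshold (log2 0.46, SE 0.102, edgeR FDR = 0.005004). No gene of these lists was called in RPF or TE.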

How the data were processed

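Total mRNA (RNA-Seq, TruSeq kit, which does not mark strand) and ribosome footprints (Ribo-Seq) of WT and XRN1-null HEK293T cells were analysed. Per the study's methods and notes, ribosomal RNA reads were removed with Bowtie2, the others mapped on hg19 with TopHat2, counted per gene with QuasR, and genes filtered on expression. The authors deposited raw counts per gene with a gene width, beside their own edgeR and RiboDiff comparisons, whose log2 fold changes, p-values and TE were not used here.

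CPM and tests started from the counts of the 8 libraries in R 4.3.3 with edgeR 4.0.16. TMM factors were set separately for RNA-Seq and Ribo-Seq, and each of these was fitted with genotype alone, and TE with assay, genotype and their interaction. Genes were called at an FDR below 0.005 by the quasi-likelihood test after Benjamini-Hochberg adjustment across the 10105 genes. The SE is the log2 fold change over the square root of F. DESeq2 1.42.0, the likelihood ratio test, other scalings, a minimum of 10 counts, an FDR of 0.05, blocks, thinned counts and leaving out each library were alternatives. Tests were checked on simulated counts with equal spread in both genotypes, whereas measured WT replicates differed more than XRN1-null replicates. The check therefore does not cover this difference in spread. Replicates are called biological in the study, and none was a duplicate of another.

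The genes and lists were chosen with earlier results of these data known. Values in every library are given for all genes called in any contrast and for the paralog groups of INSIG, SREBF, FADS, ACSL and ELOVL, other genes by ranges and counts, XRN1 as the targeted gene, and at most the 2 genes per related list with the smallest mRNA FDR, except 2 that are not reported here. ACLY, FASN, SCAP, HMGCS1, MVD, VLDLR and overlapping genes were added after their values were seen. Positions and overlaps came from GENCODE release 44 mapped to GRCh37. Depth limits precision and is lowest in WT Ribo-Seq replicate 1.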

Additional observations from a re-analysis of the deposited data

How the results depend on the processing

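No gene's call reversed under any alternative. The 8 higher and 7 lower calls in mRNA became 12 and 7 with DESeq2 (26.7% and 24.2% over all genes), 12 and 8 with the likelihood ratio test (28.9% and 29.3%), 15 and 12 at an FDR of 0.05 (32.8% and 34.2% over all genes) and 2 and 0 with an absolute log2 fold change of at least 1 (531 and 171 over all genes), and the lower calls became 4 with RNA-Seq counts thinned to Ribo-Seq depth (1727 higher and 1474 lower over all genes). Leaving out 1 library gave 5 to 16 higher and 2 to 12 lower calls (16.2% to 33.7% and 10.9% to 33.5% over all genes), with fewer only when an XRN1-null RNA-Seq library was left out. In RPF, 3 genes were higher with the likelihood ratio test and 3 at an FDR of 0.05, and leaving out 1 library gave 0 to 6 higher and 0 to 2 lower (0.703% to 12.7% and 0.713% to 10.8% over all genes, both highest without WT Ribo-Seq replicate 2), with a median log2 fold change of -0.0845 to -0.0040. The sign of the RPF log2 fold change turned in at least 1 of these fits for 9 of the 38 genes. The TE count of 1 lower gene became 2 with DESeq2, 4 with the likelihood ratio test, 4 at an FDR of 0.05 and 0 to 1 without 1 library. The median TE log2 fold change was -0.0245 with library totals, 0.0431 with thinned counts, -0.0354 with TMM over all libraries and -0.0138 to 0.0537 without 1 library.

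Replicate numbers are shared by the labels, which do not say what the numbers pair. Same-numbered WT and XRN1-null libraries deviated together with a correlation of 0.19 in RNA-Seq and 0.0803 in Ribo-Seq, and same-numbered RNA-Seq and Ribo-Seq libraries with 0.355 in WT and 0.0326 in XRN1-null cells. With 2 numbers per group and no label that states a pairing, the samples were treated as unpaired. With the number as a replicate block, mRNA calls were 12 higher and 8 lower (2858 and 2805 over all genes, against 2313 and 2344), 6 were higher in RPF (616 higher and 665 lower over all genes, against 64 and 115), and TE kept 1 lower call. With the number as a culture block within genotype, 3 were lower in TE (55 higher and 435 lower over all genes, against 5 and 180). Over all genes, RPF calls were 469 higher and 596 lower with the likelihood ratio test, 133 and 164 with library totals and 714 and 847 at an FDR of 0.05. TE calls over all genes were 34 higher and 453 lower with DESeq2, 71 and 596 with the likelihood ratio test and 103 and 653 at an FDR of 0.05. Library totals moved the mRNA split over all genes to 26.4% higher and 19% lower, with 11 and 7 of the 38 genes. The cause of these changes was not tested.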

Other observations

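Genes of lipid pathways beside sterol and fatty acid synthesis were read from the same fits, in which 22.9% of all genes had higher and 23.2% lower mRNA. Of 16 genes for glycerolipid and phospholipid synthesis in the table, 3 had higher (18.8%) and 5 lower mRNA (31.2%) in XRN1-null cells, by the quasi-likelihood test of edgeR at a Benjamini-Hochberg FDR below 0.005. CDIPT, the phosphatidylinositol synthase, was lower by 0.79 on the log2 scale (SE 0.0623, edgeR FDR = 4.13e-05), and CHKA, a choline kinase, was higher by 0.75 (SE 0.068, edgeR FDR = 7.54e-05). Of 8 genes for mitochondrial fatty acid synthesis and lipoylation, 3 were higher and 3 lower (37.5% each). NDUFAB1, the mitochondrial acyl carrier protein, was lower by 1.06 (SE 0.0656, edgeR FDR = 1.69e-05), and MECR, the enoyl reductase of the pathway, was higher by 0.51 (SE 0.0624, edgeR FDR = 0.000291). The lists were chosen with earlier results of these data known.

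For fatty acid oxidation, 17 of 18 listed genes were in the count table. Of these, 3 had higher (17.6%) and 2 lower mRNA (11.8%), below the shares over all genes in both directions. CPT1A, the carnitine palmitoyltransferase that malonyl-CoA inhibits, was higher by 0.77 on the log2 scale (SE 0.071, edgeR FDR = 8.09e-05), and ECI1, an enoyl-CoA isomerase, was lower by 0.49 (SE 0.0621, edgeR FDR = 0.000346). No gene of these 3 lists passed the test in RPF or TE. CDIPT (log2 -0.83, SE 0.155, edgeR FDR = 0.00667), NDUFAB1 (log2 -0.77, SE 0.143, edgeR FDR = 0.00639) and ECI1 (log2 -0.78, SE 0.143, edgeR FDR = 0.00606) were lower in RPF without passing the threshold.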
